A study of Homo sapiens with 12 samples.

Results

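The small nuclear and Cajal body RNAs were represented by 41 of the 47231 probes on the array, under 38 gene symbols. They were taken as every probe whose symbol in the platform annotation starts with RNU or SCARNA, or is RN7SK. By symbol, 8 probes belonged to the major spliceosome, 5 to the minor spliceosome, 2 to RN7SK and 24 to the small Cajal body RNAs (scaRNAs). The other 2, RNU105B and RNU105C, carry an RNU symbol but are annotated as small nucleolar RNAs. RNU11, RNU6ATAC and RN7SK had 2 probes each, called A and B here.

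The arrays measured total RNA of 2 human lymphoma cell lines grown in vitro. TMD8 was derived from a diffuse large B-cell lymphoma and is counted among the activated B-cell-like lines, whereas DOHH2 is counted among the germinal centre B-cell lines. Each line was treated with DMSO, the vehicle, or with ST5589 at 300 nM, which the labels call a derivative of ST1926. There were 3 arrays in each of the 4 groups, TMD8 DMSO, TMD8 ST5589, DOHH2 DMSO and DOHH2 ST5589, and no further genotype or agent is given for any of them. Exposure time and the source of the replicates are not given, so the p-values rest on the spread among these arrays alone, and that spread may be technical.

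Small nuclear RNAs are short, mostly untranslated RNAs that work inside protein particles. In the major spliceosome, U1 and U2 RNA recognise the start and the branch point of the intron, and U4, U5 and U6 RNA join as a preformed complex in which U4 holds U6 inactive until the spliceosome is activated. A minor spliceosome removes a small class of introns with U11, U12, U4atac and U6atac RNA in place of U1, U2, U4 and U6. 7SK RNA, from RN7SK, holds the elongation factor P-TEFb in an inactive complex with HEXIM and LARP7 proteins, and scaRNAs guide chemical modification of the spliceosomal RNAs in Cajal bodies, nuclear sites where these particles mature. U6, U6atac and 7SK RNA are made by RNA polymerase III and the other spliceosomal RNAs by RNA polymerase II.

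These RNAs carry no poly(A) tail and are short, while RNA was isolated on silica columns and labelled by an amplification that starts from oligo(dT). The signal of a probe is therefore the part of its RNA that was recovered and primed, and it was used here for differences within a probe and never to rank the RNAs. In bulk RNA, fewer cells with a transcript and less transcript per cell cannot be told apart. The 2 lines were run on separate chips, and effects of line and of chip cannot be told apart. In both lines the DMSO arrays took the first 3 places used on the chip and the ST5589 arrays followed, which means that treatment and place on a chip cannot be separated either.

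The 12 arrays had a median intensity of 90 to 113, and 39.2% to 49.1% of their probes lay above background. Of the pan B cell markers on the array CD79A, CD79B, MS4A1 and CD22 were measured above background and PAX5 was not. Of 12 T and NK, myeloid, stromal and epithelial markers 5 passed the filter, CD2, CD14, LYZ, COL1A1 and EPCAM, with log2 group means of 5.98 to 6.66 beside a lowest signal above background of 6.12 to 6.24 on the arrays, and 7 did not, among them CD3D and CD3E. IRF4, PIM2, BATF and CCND2, markers of the activated B-cell-like type, were lower in DOHH2 by log2 differences of -3.57 to -1.15. Of the germinal centre markers MME was higher in DOHH2 (2.90), but BCL6 (-3.52), LMO2 (-4.28) and MYBL1 (-0.65) were lower there, which goes against the labelled type of DOHH2 for those 3 genes. Under DMSO, MME was near background in TMD8 (mean 5.78), as were BCL6 (5.82) and MYBL1 (6.19) in DOHH2. The differences of MME, BCL6 and MYBL1 are therefore descriptions whose size is limited by signal. DOHH2 ST5589 array 2 stood apart. Of 51 probes that were bright in TMD8 and above background on at most 1 DOHH2 array, 46 lay above background on it. Their median signal there was 3.67% of that in TMD8. Each of the other 5 DOHH2 arrays had 0 or 1 of the 51, a count that this choice of probes keeps low.

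A probe was tested if it lay above background on all 3 arrays of at least 1 group, which held for 34 of the 41 members and 21533 of all probes. Of the members, 7 of 8 major spliceosome probes, 5 of 5 minor spliceosome probes, both RN7SK probes, 19 of 24 scaRNA probes and 1 of 2 others were tested. The 7 that were not tested were RNU5D-1, RNU105B, SCARNA1, SCARNA2, SCARNA5, SCARNA6 and SCARNA15. Signals are normalized log2 intensities, and a difference was called where the adjusted p from limma, over all 21533 probes, was below 0.05.

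In TMD8, 7SK RNA, some RNAs of the major spliceosome and, of the minor spliceosome, U6atac RNA alone were called higher after ST5589, while no scaRNA passed the test. 7 of the 34 tested members (20.6%) were called higher and 0 lower. Over all tested probes 0.279% were called higher and 0.265% lower. The 7 were both probes of RNU6ATAC, both of RN7SK, RNU4-2, RNU6-1 and RNU1-1, with folds from 2.37 to 5.82. Over all members of a class, called or not, the median log2 difference was 2.08 for RN7SK, 0.88 for the major spliceosome, 0.34 for the minor spliceosome and 0.03 for the scaRNAs, beside 0.00 over the tested probes. The count of 7 was 4 without TMD8 DMSO array 2 and 4 without TMD8 DMSO array 3. Quantile normalization was also replaced by scaling every array to one median, and 2 probes were then called, both of RNU6ATAC.

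**Figure D1:**
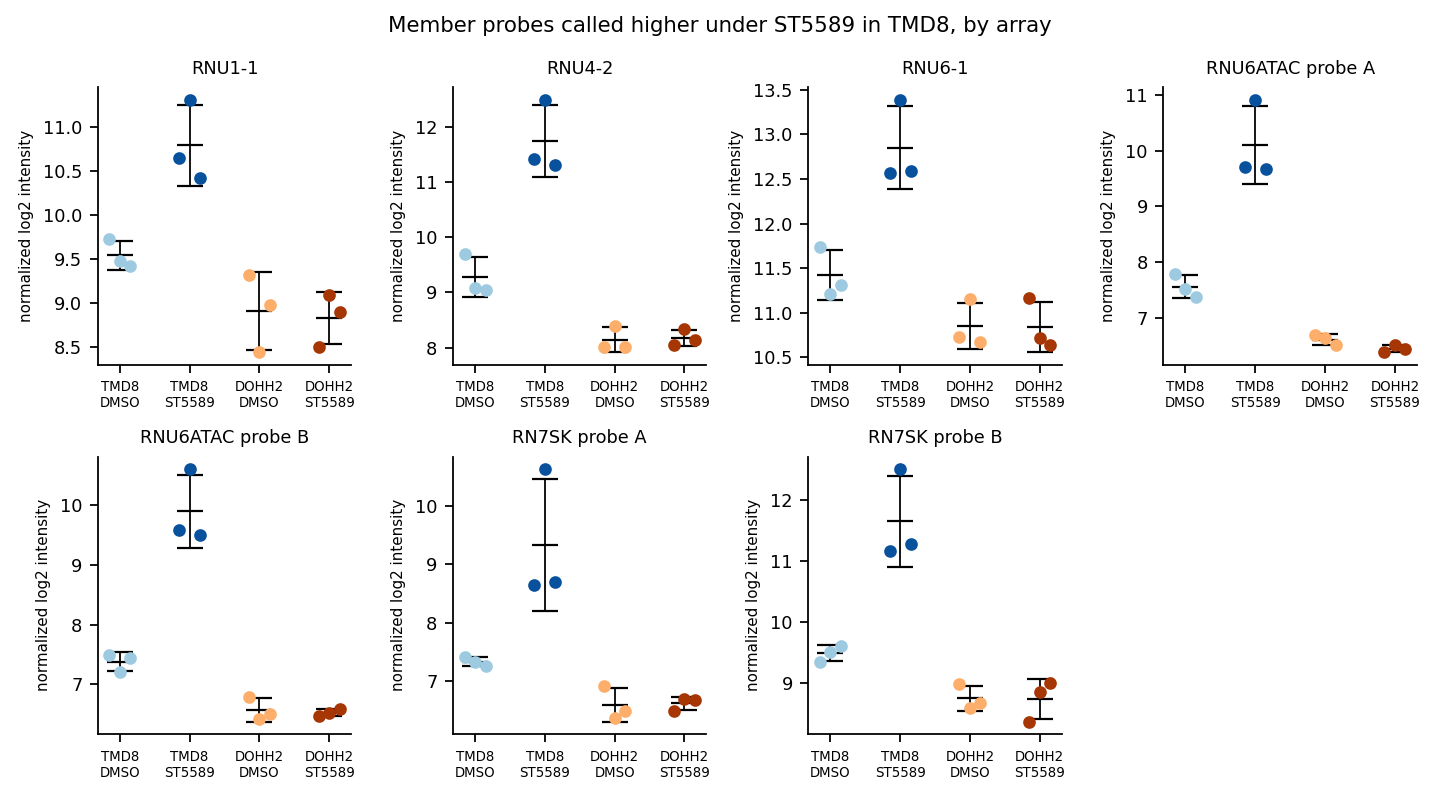
Normalized log2 intensity of the 7 member probes called higher under ST5589 in TMD8, with 1 point per array and the mean ± SD of each group of 3 arrays; each panel has its own axis. The TMD8 ST5589 arrays lay above all TMD8 DMSO arrays in every panel, array 2 (the middle point) was the highest of them, and the DOHH2 groups lay close together.

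RNU6ATAC encodes U6atac RNA, the catalytic RNA of the minor spliceosome that takes the place of U6. The signal of its probe A in TMD8 was 7.79, 7.51 and 7.38 in DMSO arrays 1 to 3 and 9.71, 10.92 and 9.68 in ST5589 arrays 1 to 3. Probe B read 7.49, 7.20 and 7.44 under DMSO and 9.59, 10.61 and 9.50 under ST5589. With both probes every ST5589 array stood well above every DMSO array, and ST5589 array 2 stood highest. The log2 differences were 2.54 ± 0.25 (SE, 5.82-fold; limma adjusted p = 0.000418) for probe A and 2.52 ± 0.22 (5.76-fold; limma adjusted p = 0.000406) for probe B. In the deposited intensities, before any correction, probe A read 201 to 323.9 under DMSO and 882.3 to 1614 under ST5589.

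U4 RNA, the partner that keeps U6 inactive, was read by probes of RNU4-1 and RNU4-2, near-identical gene copies whose assignment is therefore uncertain. The RNU4-2 probe in TMD8 was at 9.70, 9.08 and 9.05 under DMSO and at 11.41, 12.49 and 11.31 under ST5589, a log2 difference of 2.46 ± 0.26 (5.50-fold; limma adjusted p = 0.000699). The RNU4-1 probe was at 8.04, 7.75 and 7.66 under DMSO and at 8.22, 8.70 and 8.06 under ST5589, a difference of 0.51 ± 0.18 that was not called (limma adjusted p = 0.502). Neither probe had overlapping groups, but for RNU4-1 the lowest ST5589 array was just above the highest DMSO array.

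RNU6-1 encodes U6 RNA, which forms the catalytic centre of the major spliceosome. It was at 11.74, 11.21 and 11.31 under DMSO in TMD8 and at 12.57, 13.39 and 12.59 under ST5589. The log2 difference was 1.43 ± 0.22 (2.70-fold; limma adjusted p = 0.0107), and the groups did not overlap. RNU6-1 lost its call in 5 of 24 alternative settings, among them those without TMD8 DMSO array 2 (limma adjusted p = 0.0676) or array 3 (limma adjusted p = 0.0616).

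U1 RNA, which pairs with the start of the intron, was read by probes of the near-identical copies RNU1-1 and RNU1-3. RNU1-1 was at 9.73, 9.47 and 9.42 under DMSO and at 10.64, 11.31 and 10.42 under ST5589, a log2 difference of 1.24 ± 0.24 (2.37-fold; limma adjusted p = 0.0387). RNU1-3 was at 9.30, 9.55 and 9.39 under DMSO and at 10.28, 11.47 and 10.36 under ST5589. Its difference of 1.29 ± 0.29 was of similar size but was not called (limma adjusted p = 0.0907). Both probes had ST5589 arrays above all DMSO arrays. RNU1-1 lost its call in 11 of 24 alternative settings, among them each one without a TMD8 DMSO array.

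RN7SK was read by 2 probes. Probe A in TMD8 was at 7.41, 7.32 and 7.26 under DMSO and at 8.64, 10.63 and 8.70 under ST5589. Probe B was at 9.34, 9.51 and 9.60 under DMSO and at 11.16, 12.51 and 11.28 under ST5589. With either probe the ST5589 arrays were all above the DMSO arrays, and array 2 was far above the other 2. The log2 difference was 1.99 ± 0.38 (3.98-fold; limma adjusted p = 0.0358) for probe A and 2.17 ± 0.28 (4.49-fold; limma adjusted p = 0.00316) for probe B. Probe A lost its call in 11 of 23 alternative settings and probe B in 1 of 24.

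The remaining tested spliceosomal members of TMD8 were not called. U2 RNA, which pairs with the branch point, was at 7.17, 6.94 and 6.98 under DMSO and at 6.81, 7.12 and 6.79 under ST5589 with the RNU2-1 probe (log2 difference -0.12). RNU5A-1, for U5 RNA, which holds the exons, gave 0.12 and RNU4ATAC, for U4atac RNA, the minor spliceosome's partner of U6atac, gave -0.13. These 3 had overlapping groups. RNU5A-1 lay near background, with means of 6.26 under DMSO and 6.38 under ST5589. Its difference is therefore limited by signal, and a change in U5 RNA itself is not excluded. Both RNU11 probes, for U11 RNA, which takes the place of U1, gave 0.34 with overlapping groups (limma adjusted p = 0.80 for probe A and 0.778 for probe B). Within the minor spliceosome the RNU6ATAC signal was thus higher after ST5589 and the signals of RNU11 and RNU4ATAC did not pass the test. The 95% intervals were 0.011 to 0.673 for RNU11 probe A, 0.021 to 0.665 for probe B and -0.377 to 0.118 for RNU4ATAC. Unadjusted limma p was 0.044 and 0.0383 for the RNU11 probes. Without array 2, the ST5589 mean of RNU11 stood above the DMSO mean by 0.12 for probe A and 0.15 for probe B.

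Grouped by polymerase, a grouping chosen after the values were seen, all 5 member probes of RNAs made by RNA polymerase III (RNU6-1, RNU6ATAC and RN7SK) were among the 7 called higher, beside 0.279% of all tested probes. Because the grouping followed the calls, this count is no test of it, and RNU6ATAC and RN7SK count with 2 probes each. Y and vault RNAs, which are also made by RNA polymerase III, are not members: of their 7 tested probes 0 were called higher and 3 lower, with a median of -0.25. Of the 9 tested spliceosomal probes of RNAs made by RNA polymerase II, 2 were called higher, RNU4-2 and RNU1-1.

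The scaRNAs of TMD8 lay close to their DMSO signal. 0 of 19 tested probes were called in either direction with limma, 1 had an unadjusted p below 0.05, and the log2 differences ran from -0.20 to 0.44. That 1 was SCARNA10, a guide for U5 RNA, which was at 7.95, 8.30 and 8.36 under DMSO and at 8.55, 8.86 and 8.51 under ST5589 (0.44 ± 0.17; limma adjusted p = 0.665). Its groups did not overlap. SCARNA9, a guide for U2 RNA, was nearly flat, at 10.03, 10.06 and 10.09 under DMSO and at 10.10, 10.10 and 10.13 under ST5589. The 95% intervals of the 19 probes lay between -0.62 and 0.80, so a signal difference of the size seen for RNU6ATAC was outside all of them. Several probes lay near background, such as SCARNA20 and SCARNA3 (means of 6.23 and 6.24 under DMSO). Their differences are limited by signal, and for them a change of that size in the RNA itself is not excluded. RNU105C, the tested small nucleolar RNA among the members, gave 0.07.

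**Figure D2:**
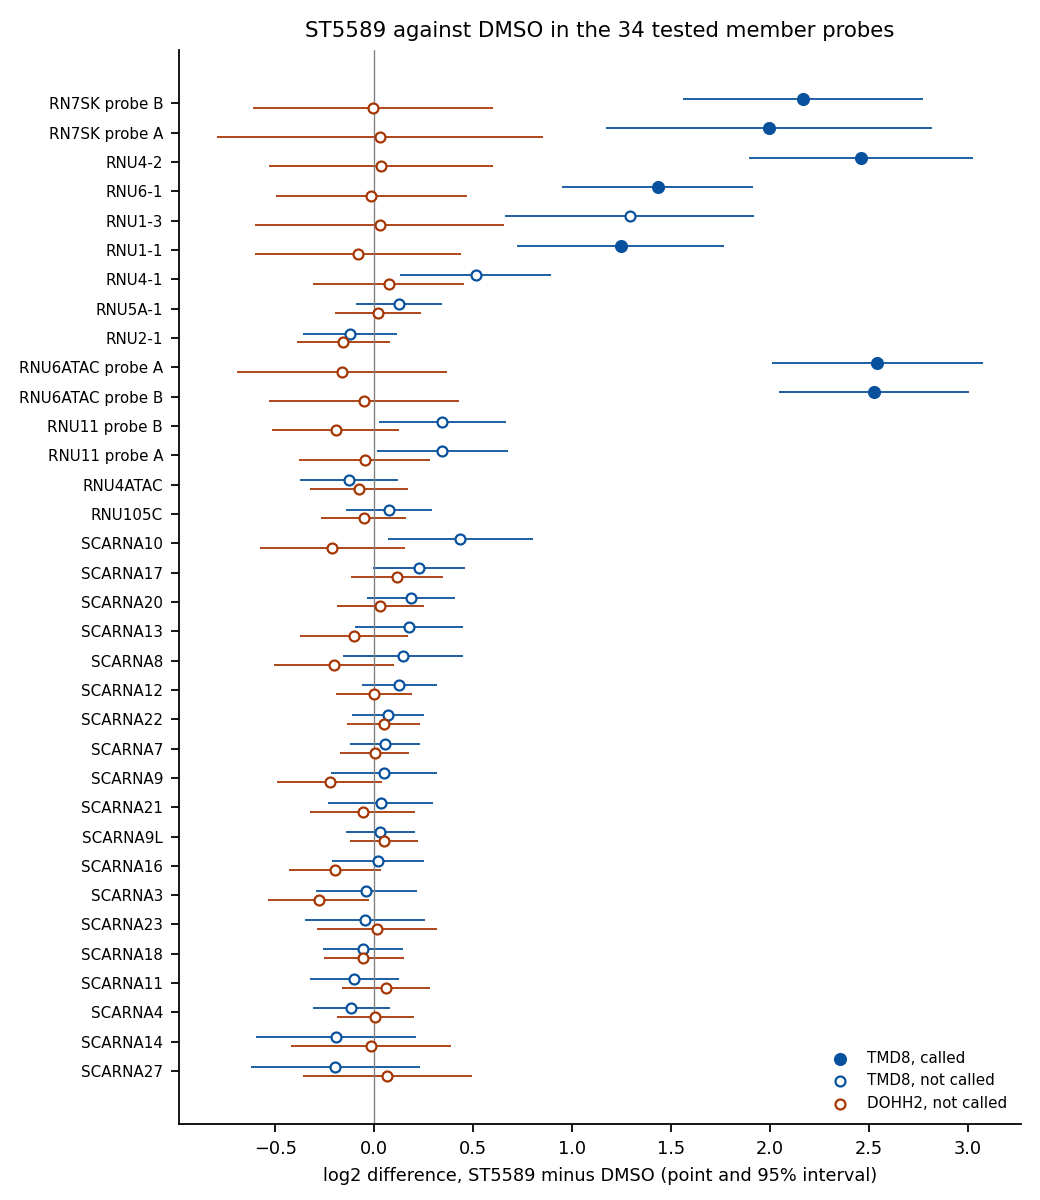
Log2 difference between ST5589 and DMSO for each of the 34 tested member probes, in TMD8 (blue) and DOHH2 (brown), with 95% intervals from limma; filled points were called. The 7 filled points, all TMD8, lie between 1.24 and 2.54, and the scaRNA points of both lines lie between -0.28 and 0.44.

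The rises in TMD8 differed in size between the ST5589 arrays. In all 7 called members array 2 was the highest, by 0.78 to 1.96 above the mean of arrays 1 and 3, and in 22 of the 27 other tested members it lay above that mean too, by at most 1.15. Arrays 1 and 3 alone stood above the DMSO mean by 2.14 for RNU6ATAC probe A, 2.08 for RNU4-2, 1.34 for RN7SK probe A and 0.99 for RNU1-1. The SD of the called members was 0.47 to 1.13 among the ST5589 arrays and 0.08 to 0.37 among the DMSO arrays. The limma errors pool the spread of all 4 groups and are smaller than the TMD8 ST5589 arrays alone would give. With each line fitted alone 6 of the 7 were called, and RN7SK probe A was not (limma adjusted p = 0.154). Without TMD8 ST5589 array 2 and DOHH2 ST5589 array 2, an alternative chosen after seeing the data, 5 members were called, and RNU6-1 (limma adjusted p = 0.0517) and RNU1-1 (limma adjusted p = 0.207) were not.

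Other RNAs without a poly(A) tail moved beside these members in TMD8. The 2 genes of ribosomal RNA had 3 probes, whose median was 10.75, 11.10 and 11.02 in the DMSO arrays and 11.59, 13.12 and 11.94 in the ST5589 arrays. Array 2 was again the highest, and 0 of the 3 probes were called with limma (2 at an unadjusted p below 0.05). The 3 probes differed: RNA18SN5 gave a log2 difference of 2.99, and the RNA28SN5 probes gave 1.41 and 0.50. The largest difference among the members was 2.54. Of 82 tested H/ACA small nucleolar RNA probes 13 were called higher and 0 lower, with a median of 0.05 over all 102. Of 93 tested C/D small nucleolar RNA probes 0 were called with limma (22 at an unadjusted p below 0.05), and of 7 Y and vault RNA probes 3 were called lower. Rises were thus not shared by all such RNAs, and the part of RNA recovery or priming in the members' rises was not tested.

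**Figure D3:**
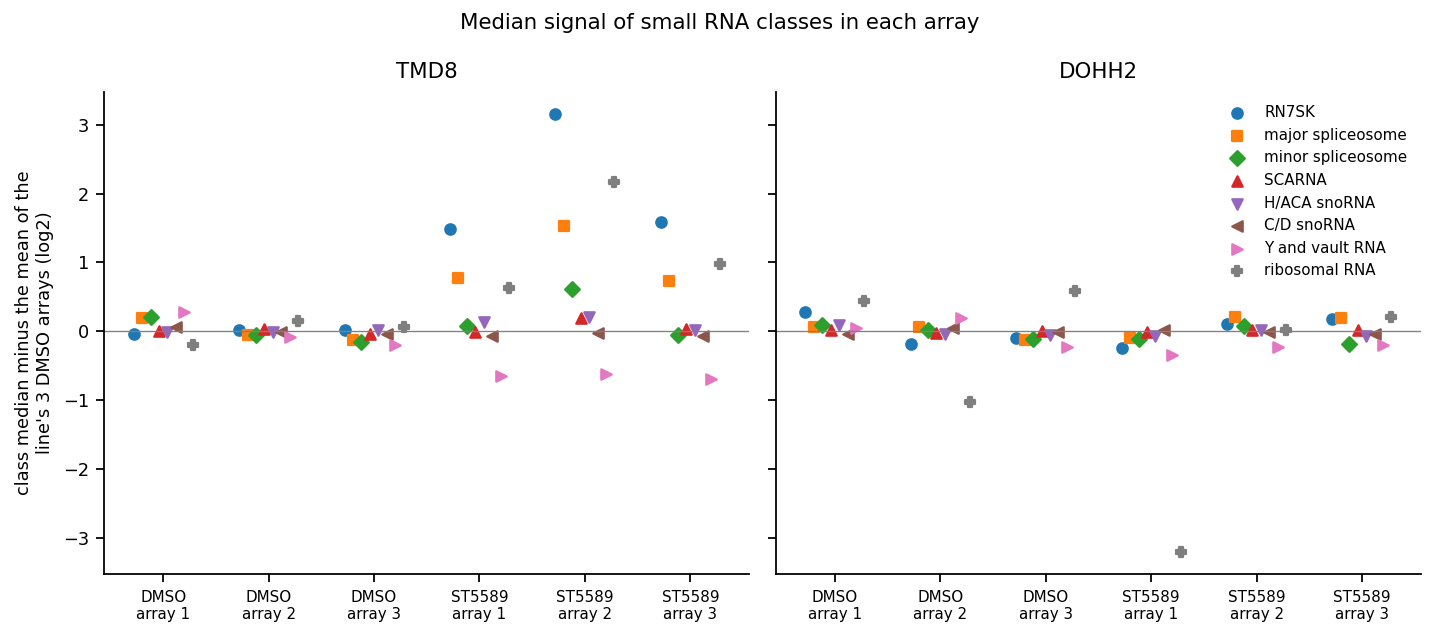
Median normalized log2 intensity of the probes of each small RNA class in each array, minus the mean of the 3 DMSO arrays of the same line. In TMD8 the RN7SK, major spliceosome and ribosomal RNA medians rise in all 3 ST5589 arrays and most in array 2, the Y and vault RNA median falls in all 3, and the scaRNA and C/D medians stay near 0. The minor spliceosome median is clearly raised in ST5589 array 2 alone.

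In DOHH2 no member passed the test for ST5589. 0 of 34 tested members were called with limma, beside 0.0139% of all tested probes called in either direction, and 1 member had an unadjusted p below 0.05. The members that were called in TMD8 had log2 differences of -0.16 to 0.03 here. No alternative setting called any member in DOHH2.

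RNU6ATAC probe A in DOHH2 was at 6.69, 6.63 and 6.51 under DMSO and at 6.39, 6.51 and 6.44 under ST5589. RNU4-2 was at 8.01, 8.40 and 8.02 under DMSO and at 8.05, 8.34 and 8.14 under ST5589. RN7SK probe B was at 8.98, 8.59 and 8.66 under DMSO and at 8.36, 8.85 and 8.99 under ST5589. In the last 2 the groups overlapped, and for RNU6ATAC probe A the ST5589 arrays reached up to the lowest DMSO array. The RNU6ATAC signal lay near background here, where the lowest signal above background was 6.16 to 6.24 on the DOHH2 arrays. Its difference in DOHH2 is therefore limited by signal.

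RNU6-1 in DOHH2 was at 10.73, 11.15 and 10.67 under DMSO and at 11.16, 10.72 and 10.64 under ST5589. RNU1-1 was at 9.32, 8.44 and 8.97 under DMSO and at 8.50, 9.09 and 8.89 under ST5589. In both the ST5589 arrays were spread over the range of the DMSO arrays. For the 7 members called in TMD8 the upper 95% limit in DOHH2 was 0.37 to 0.85. These members were picked by their TMD8 values, so the limits are no test between the lines. RNU6ATAC probe B (-0.05), RN7SK probe A (0.03) and RNU1-3 (0.03) were near 0 as well.

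Of the other DOHH2 members RNU2-1 gave a log2 difference of -0.16 and RNU11 probe B -0.19. The member with the unadjusted p below 0.05 was SCARNA3, at 6.61, 6.69 and 6.36 under DMSO and at 6.33, 6.27 and 6.23 under ST5589 (-0.28 ± 0.12; limma adjusted p = 0.967). Its ST5589 arrays were all below its DMSO arrays. The ribosomal RNA median was uneven in this line, at 10.58, 9.10 and 10.72 under DMSO and at 6.92, 10.15 and 10.34 under ST5589. On DOHH2 ST5589 array 1, where it was lowest, RN7SK probe B was lowest too, while the normalized RNU6-1 signal was highest there. In the deposited intensities, before any correction, RNU6-1 was lowest on that array, at 1463 beside 1568 to 2213 on the other DOHH2 arrays.

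The test of the difference between the lines called RNU6ATAC. 2 of 34 members were called, both lower in DOHH2 than in TMD8, beside 0.0139% of all tested probes in either direction. These 2 probes of RNU6ATAC were the 2 probes called in that direction out of all 21533. The ST5589 effect in DOHH2 minus that in TMD8 was -2.71 ± 0.35 for probe A and -2.58 ± 0.32 for probe B (limma adjusted p = 0.0211 each). RNU6ATAC lay near background in DOHH2, so the size of these values is limited by signal. For the 5 others called in TMD8 the difference was of the same sign and was not called: -2.43 ± 0.37 for RNU4-2 (limma adjusted p = 0.0978), -2.17 for RN7SK probe B, -1.97 for RN7SK probe A, -1.45 for RNU6-1 and -1.33 for RNU1-1. The RNU6ATAC call was lost without TMD8 DMSO array 2 or 3, without any one of the DOHH2 DMSO arrays, and without DOHH2 ST5589 array 1 or 2, while the value stayed between -3.04 and -2.31 for probe A over the alternatives. Probe A also lost it without DOHH2 ST5589 array 3, and without TMD8 ST5589 array 2 the count of called members was 5.

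Under DMSO alone, 8 of the 12 tested spliceosomal probes were called lower in DOHH2 than in TMD8, and 0 higher. These 8 read U1, U2, U4, U4atac and U6atac RNA, with 2 probes each for U1, U4 and U6atac. Of all 34 tested members 15 (44.1%) were called lower and 3 (8.8%) higher, beside 22.2% of all tested probes called lower and 23.9% called higher. The lower ones were 5 of 7 major spliceosome probes, 3 of 5 minor spliceosome probes, 1 of 2 RN7SK probes and 6 of 19 scaRNA probes, and the 3 higher ones were scaRNAs. 8 of the 34 passed the filter through TMD8 alone, and 2 of these, SCARNA11 and SCARNA17, are among the 15, so their call is no support. Of the 26 members above background in a whole group of each line, 13 were called lower and 3 higher. Over all members the median log2 difference was -0.74 for RN7SK, -0.64 for the major spliceosome, -0.52 for the minor spliceosome and -0.16 for the scaRNAs, beside -0.01 over the tested probes. Of the 18 called members, 11 stayed called in every alternative run. The other 7 were RNU1-1, RNU1-3, RN7SK probe B, SCARNA3, SCARNA13, SCARNA16 and SCARNA17. Lower signal in DOHH2 was not particular to the members. Of 7 tested Y and vault RNA probes 4 were called lower and 0 higher, with a median of -1.04, and the ribosomal RNA median was -0.42 with 0 called. Small nucleolar RNAs went both ways, with 24 higher and 10 lower of 82 tested H/ACA probes and 29 higher and 21 lower of 93 tested C/D probes. Line and chip are confounded in all these values.

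Among the major spliceosome RNAs, the RNU4-2 probe was lower in DOHH2 by a log2 difference of -1.13 ± 0.26 (limma adjusted p = 0.003) and RNU4-1, at 7.04, 6.88 and 6.64 in DOHH2, by -0.96 ± 0.18. RNU1-3, at 8.97, 8.15 and 8.42 in DOHH2, differed by -0.90 and RNU1-1 by -0.63. RNU2-1, at 6.32, 6.45 and 6.37 in DOHH2, differed by -0.65 ± 0.11 (limma adjusted p = 0.000256), the most precise of these. RNU6-1 gave -0.57 and was just short of the threshold (limma adjusted p = 0.052).

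Among the minor spliceosome RNAs, RNU6ATAC was lower in DOHH2 with both probes (-0.95 ± 0.25 and -0.81 ± 0.22). Its DOHH2 means, 6.61 for probe A and 6.57 for probe B, lay near background, so the size of these differences is limited by signal. RNU4ATAC was at 7.45, 7.28 and 7.10 in TMD8 and at 6.86, 6.78 and 6.65 in DOHH2 (-0.52 ± 0.12; limma adjusted p = 0.00222). The RNU11 probes gave 0.23 and 0.25 and were not called. Both RN7SK probes gave -0.74, and probe B was called (limma adjusted p = 0.0448). RNU1-1 and RN7SK probe B lost their line calls in 12 and 10 of 22 alternative settings.

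The scaRNAs differed between the lines one by one, in both directions. SCARNA9, a guide for U2 RNA, was at 9.17, 8.74 and 8.75 in DOHH2 against the 10.03 to 10.09 of TMD8, a log2 difference of -1.17 ± 0.12 (2.25-fold; limma adjusted p = 3.68e-06). SCARNA8, another guide for U2 RNA, was at 7.90, 7.82 and 7.79 in TMD8 and at 6.79, 6.81 and 6.53 in DOHH2 (-1.13 ± 0.14; limma adjusted p = 1.87e-05). Both were clearly lower in every DOHH2 array. SCARNA14 was at 8.18, 7.66 and 7.29 in TMD8 and at 6.88, 7.00 and 6.86 in DOHH2 (-0.80 ± 0.19), the TMD8 arrays being the more scattered. SCARNA13 was at 7.61, 7.65 and 7.62 in TMD8 and at 7.49, 7.17 and 7.09 in DOHH2 (-0.38 ± 0.13).

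SCARNA11 was at 6.74, 6.72 and 6.46 in TMD8 and at 6.10, 6.16 and 6.18 in DOHH2, where no DMSO array was above background. It was at least 1.35-fold lower in DOHH2, a description only, since it entered the test through TMD8 alone. SCARNA17, also not above background in the DOHH2 DMSO arrays, was at 6.29, 6.33 and 6.30 in TMD8 and at 6.02, 6.06 and 5.94 in DOHH2, at least 1.07-fold lower, and it too entered the test through TMD8 alone.

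In the other direction, SCARNA18 was at 7.01, 6.89 and 7.01 in TMD8 and at 7.70, 7.88 and 7.62 in DOHH2 (0.76 ± 0.09, 1.70-fold; limma adjusted p = 1.56e-05). SCARNA16 was at 6.89, 7.07 and 6.84 in TMD8 and at 7.61, 7.31 and 7.26 in DOHH2 (0.46 ± 0.11). SCARNA3 was at 6.31, 6.27 and 6.15 in TMD8 and gave 0.31 ± 0.12 (limma adjusted p = 0.0444). All 3 were higher in every DOHH2 DMSO array, and SCARNA3 lost its call in 10 of 21 alternative settings.

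Most scaRNAs are cut out of introns of other genes, so the probe of the gene whose span holds each scaRNA was set beside it. All 19 tested scaRNAs lay inside the span of another gene in the RefSeq table, which gives no strand, and 16 had such a gene that was itself tested. Of the 8 called scaRNAs with a tested gene around them, SCARNA11 among them, that gene was called for 2, once in the same direction. Over all tested probes 23.9% were called higher and 22.2% lower. Whether the scaRNAs follow these genes was not tested. TMEM167A, around SCARNA18, was higher in DOHH2 (0.33 ± 0.12), and TIPIN, a replication fork protein around SCARNA14, was also higher (0.34 ± 0.12) while SCARNA14 was lower. CEP295, a centriole protein around SCARNA9, gave 0.13 ± 0.10, and HAUS6, a subunit of the microtubule-nucleating augmin complex around SCARNA8, gave -0.06 ± 0.13; neither was called. In 4 further cases the gene was called and its scaRNA was not, as for KHDC4 (-0.59) around SCARNA4 (-0.18). With ST5589 none of the 16 genes was called in TMD8 or in DOHH2 with limma.

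**Figure D4:**
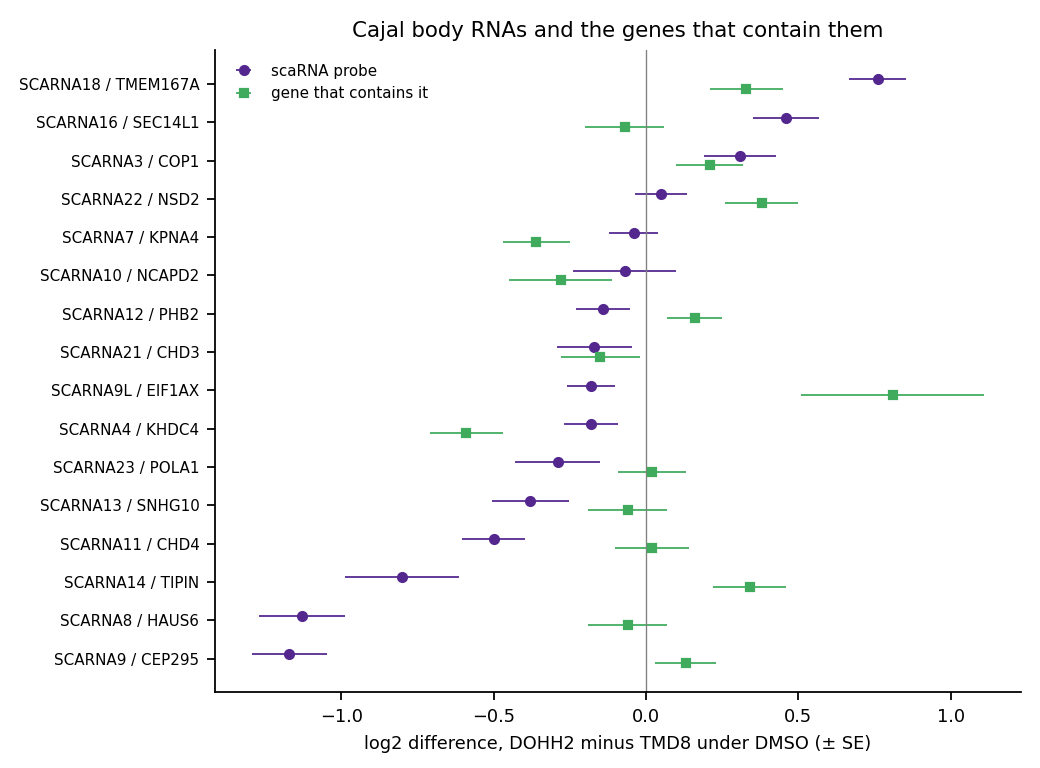
Log2 difference between DOHH2 and TMD8 under DMSO for 16 scaRNA probes (circles) and for the gene whose span contains each (squares), ± SE from limma. SCARNA9, SCARNA8 and SCARNA14 lie at -1.17 to -0.80 while the genes around them lie between -0.06 and 0.34.

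The mRNAs of the proteins that work with these RNAs were read from 8 lists with 124 genes, of which 119 were tested. With ST5589, 0 of 119 were called with limma in TMD8 (8 at an unadjusted p below 0.05) and 0 of 119 in DOHH2 (6). The list medians lay between -0.08 and 0.03 in TMD8 and between -0.07 and 0.05 in DOHH2, beside 0.00 over all tested probes. In the 7SK and P-TEFb list, the largest values in TMD8 were 0.15 for CCNT2, a cyclin of P-TEFb, and -0.21 for MEPCE, which caps 7SK RNA, and LARP7, which binds its end, was the lowest in DOHH2 at -0.23. In the minor spliceosome list they were 0.32 for ZRSR2, which recognises the end of minor introns, and -0.12 for ZMAT5 in TMD8, and 0.15 for PDCD7 and -0.15 for ZMAT5 in DOHH2.

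In the list of snRNA transcription and end formation the largest values in TMD8 were 0.26 for BRF2, a polymerase III factor of U6-type promoters, and -0.37 for INTS8, a subunit of the Integrator complex. In DOHH2 they were 0.29 for SNAPC4 and -0.30 for SNAPC5, subunits of the complex that binds snRNA promoters. Among Sm, LSm and U1/U2 proteins they were 0.22 for SF3A3 and -0.29 for LSM6, of the ring that binds the end of U6 RNA, in TMD8, and 0.30 for SF3A2 and -0.32 for SNRPD1 in DOHH2. Among tri-snRNP proteins they were 0.25 for USP39 and -0.16 for DDX23 in TMD8, and 0.14 for PRPF8 and -0.24 for PPIH in DOHH2.

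For snRNP assembly they were 0.19 for TGS1, the cap methylase of snRNAs, and -0.32 for SNUPN, their import adaptor, in TMD8, and 0.10 for WDR77 and -0.34 for PHAX in DOHH2. For the Cajal body and H/ACA proteins they were 0.18 for WRAP53, which brings scaRNAs to Cajal bodies, and -0.37 for NOP58 in TMD8, and 0.22 for WRAP53 and -0.12 for COIL, the scaffold of the Cajal body, in DOHH2. For small RNA ends and decay they were 0.28 for ZCCHC8 and -0.33 for MTREX in TMD8, and 0.42 for TENT4B and -0.29 for MTREX in DOHH2. None of these values passed the test.

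Between the lines, 21 of the 119 genes were called higher in DOHH2 and 25 lower, beside 23.9% and 22.2% of all tested probes, so neither share was above that background, and the list medians lay between -0.30 and 0.07. The lowest median was that of the 7SK and P-TEFb list, in which 2 of 8 tested genes were called lower, HEXIM2 (-0.60) and CDK9, the kinase of P-TEFb (-0.37), and 0 higher. In the minor spliceosome list 3 of 9 were lower, ZMAT5 (-0.75), ZCRB1 (-0.66) and PDCD7 (-0.52), all proteins of the particle that holds U11 and U12 RNA, and 0 higher. Of 24 tested genes of snRNA transcription 6 were higher and 7 lower, from SNAPC2 (-1.26) to INTS10 (1.28), with SNAPC4 at -0.91 and SNAPC5 at 1.17. Of 14 tested tri-snRNP genes 3 were higher and 2 lower, among them PRPF31, which holds the U4/U6 complex, at -1.73 and SNRNP40 at 0.80.

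Of 25 tested Sm, LSm and U1/U2 genes 4 were higher and 6 lower, among them SF3A2 (-1.31), SNRNP70, the main protein of the U1 particle (-0.96), SNRPE (0.94) and LSM6 (0.96). Of 14 assembly genes 3 were higher, with SMN1, a near-identical copy of SMN2 and so uncertain, at 0.89, and 0 lower. Of 12 Cajal body and H/ACA genes 4 were higher, COIL (0.32) among them, and 1 lower, SHQ1 (-0.53). Of 13 genes of RNA ends and decay 1 was higher, RBM7 (0.63), and 4 lower, among them USB1, which trims U6 RNA (-0.67).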

How the data were processed

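Total RNA of 12 cell line samples was hybridised as biotin-labelled cRNA to single-colour Illumina beadchips. Per the labels' protocols, RNA came from RNeasy columns and was amplified with the TotalPrep kit. Non-normalized probe intensity values and processed log2 values were deposited by the authors; the submitters' processing notes name GenomeStudio. Intensities were corrected with normexp (offset 50), quantile normalized and set on the log2 scale (R 4.3.3, limma 3.58.1). Background was the mode of an array's intensities, and a probe 2.33 SD above it was above background. Where a probe was at background on every array of a group, "at least" folds were taken against the lowest signal above background. One limma model over 12 arrays was fitted per probe, without a replicate block, and checked on simulated data. The simulated noise was independent and had the same SD in all groups. That check therefore does not cover the unequal spread of the called members between the groups. P-values were Benjamini-Hochberg adjusted.

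The members and lists were chosen with earlier results of these data known. Values by array are given for members called in any of the 4 comparisons and, per class, for the brightest and the most changed; list genes are named where called or largest in a line, and the line calls of the lists in part. 0 of the 38 symbols had an entry in the sequence tables, so no sequence is printed. Same-numbered arrays did not deviate together (correlations -0.46 to -0.00). Precision is limited by the number of arrays, with a median SE of 0.11 for a log2 difference within a line. No pair of arrays held identical values. Alternatives changed background correction, scaling, filter, probe choice, weights, model and arrays.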

Additional observations from a re-analysis of the deposited data

Results flagged for a closer look

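The ST5589 effect on RNU6ATAC, the U6atac RNA of the minor spliceosome, differed between the lines by the test of that difference. The effect in DOHH2 minus that in TMD8 was -2.705 for probe A and -2.575 for probe B on the log2 scale (limma adjusted p = 0.0211 each). The call was lost in 12 of 23 alternative settings for probe A and in 11 of 22 for probe B, the authors' log2 values and the replicate block among them. Over the alternatives the adjusted p from limma ran from 0.000135 to 0.277 for probe A and from 0.00019 to 0.315 for probe B. In every TMD8 ST5589 array both probes lay above all TMD8 DMSO arrays. In DOHH2 all 6 arrays of probe A lay between 6.39 and 6.69, beside a lowest signal above background of 6.16 to 6.24 on those arrays. The DOHH2 signal was thus near background, and the size of the difference between the lines is limited by signal.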

How the results depend on the processing

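Every alternative kept the sign of each called member. In TMD8, where 7 members were called, scaling to a common median left 2, both probes of RNU6ATAC, and the replicate block left 4. Leaving out arrays gave 4 to 7, with 4 without TMD8 DMSO array 2 or 3. RNU6ATAC kept its call in all alternatives, RNU4-2 and RN7SK probe B in all but the common median. For the difference between the lines, where 2 were called, 1 probe per gene gave 1, array weights gave 4, and 0 were called with a common median, with no background correction, with the authors' log2 values and with the replicate block. Leaving out arrays gave 0 to 5: 5 without TMD8 ST5589 array 2, 0 without TMD8 DMSO array 2 or 3, any DOHH2 DMSO array or DOHH2 ST5589 array 1 or 2, and 1 without DOHH2 ST5589 array 3. The cause of these changes was not tested. DOHH2 gave 0 throughout, and the 18 line calls ranged from 12 to 24. The replicate numbers mark no stated pairing. Over all probes, the calls in TMD8 went from 117 to 9 with a common median, 32 with the replicate block and 469 with array weights. SCARNA members near background give differences that are limited by signal.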
